A study of Mus musculus with 9 samples.

Results

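The 40 genes described here code for proteins that carry a cell through mitosis. They were chosen by gene symbol, from a list of mitosis and spindle genes. The rule uses no measured value, but the list was proposed with earlier results of these data known. All 40 were found among the 26202 genes of the deposited table, and all 40 passed the filter on low values. Levels were measured by RNA sequencing in ATDC5 cells, a chondrogenic line from mouse that can be taken through the steps of cartilage formation in a dish. The 3 groups were ATDC5 cells with acetate, with ethanol, and control cells, with 3 libraries each. All groups started in DMEM/F-12 with serum, to which insulin-transferrin-selenium, beta-glycerophosphate and ascorbate were then added, and the treatments were given in that medium. The doses, the times of exposure and what the control cells received are not given in the sources used here. ATDC5 is a single line, and nothing in the labels says that the replicates were separate cultures, so p-values measure the spread between these libraries, which may be technical. In bulk RNA fewer dividing cells and less of a transcript per cell cannot be told apart.

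The body turns ethanol into acetate by way of acetaldehyde. The question of the series is whether acetate has a share in what ethanol does to bone and to differentiating chondrocytes. Chondrocyte precursors divide before they build matrix and leave the cell cycle as they become hypertrophic. Entry into mitosis is driven by cyclin-dependent kinase 1 (Cdk1) with its cyclins, and exit by the anaphase-promoting complex, a ubiquitin ligase that marks cyclin B and securin for destruction. Most genes of this kind are transcribed late in the cell cycle. Their promoters are known for a cell cycle genes homology region (CHR), bound by the MuvB complex with B-MYB and FOXM1 in dividing cells and with a pocket protein in resting cells, and for CCAAT boxes, bound by NF-Y.

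The promoters of 5 members are shown because they hold both kinds of letters that mark genes of this class. Each is the 250 bases before the RefSeq start on GRCm38.p6, 5′ to 3′ on the strand of the gene, with CHR letters (TTTGAA or TTCGAA) and CCAAT letters, on either strand, in capitals. In Ube2c the run of CCAATTGG holds the CCAAT letters on both strands, which overlap.
Mki67: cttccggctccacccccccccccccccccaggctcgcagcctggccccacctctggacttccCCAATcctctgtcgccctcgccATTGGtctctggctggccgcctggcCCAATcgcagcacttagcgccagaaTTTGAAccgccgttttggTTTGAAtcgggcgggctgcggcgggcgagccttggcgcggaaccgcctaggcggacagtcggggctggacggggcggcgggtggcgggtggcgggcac
Top2a: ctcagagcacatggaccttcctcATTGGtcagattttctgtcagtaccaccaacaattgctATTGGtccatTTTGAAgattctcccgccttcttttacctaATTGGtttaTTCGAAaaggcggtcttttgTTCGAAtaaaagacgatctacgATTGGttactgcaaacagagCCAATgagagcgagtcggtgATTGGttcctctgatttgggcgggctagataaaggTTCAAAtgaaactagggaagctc
Cdk1: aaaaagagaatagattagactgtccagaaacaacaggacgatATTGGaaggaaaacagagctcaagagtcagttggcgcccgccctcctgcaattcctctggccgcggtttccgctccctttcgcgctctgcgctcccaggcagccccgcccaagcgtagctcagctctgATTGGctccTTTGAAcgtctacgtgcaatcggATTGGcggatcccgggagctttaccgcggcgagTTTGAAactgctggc
Cdc20: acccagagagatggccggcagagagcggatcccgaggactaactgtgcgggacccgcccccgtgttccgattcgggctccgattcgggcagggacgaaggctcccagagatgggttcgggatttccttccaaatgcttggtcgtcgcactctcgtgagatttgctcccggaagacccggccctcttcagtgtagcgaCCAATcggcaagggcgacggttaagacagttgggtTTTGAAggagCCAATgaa
Ube2c: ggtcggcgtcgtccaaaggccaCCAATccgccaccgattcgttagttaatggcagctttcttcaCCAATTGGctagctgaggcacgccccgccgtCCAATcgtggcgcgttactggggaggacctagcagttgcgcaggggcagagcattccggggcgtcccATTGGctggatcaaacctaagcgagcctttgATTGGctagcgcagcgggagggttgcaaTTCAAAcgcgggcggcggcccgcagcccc
These lie at chr7:135716380-135716629 on the minus strand (Mki67), chr11:99024190-99024439 on the minus strand (Top2a), chr10:69352913-69353162 on the minus strand (Cdk1), chr4:118437344-118437593 on the minus strand (Cdc20) and chr2:164769679-164769928 on the plus strand (Ube2c). Of the members, 34 matched a RefSeq promoter. CHR letters were found in 13 of these, 38.2%, against 19.6% of the promoters of 27025 genes. CCAAT letters were found in 24 of the 34, 70.6%, against 37.5% of all genes. Both kinds stood together in 12, 35.3%, against 7.93% of all genes, and 16 held at least 2 CCAAT matches, 47.1% against 11.5%. A match is a description of letters and not of a bound site.

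Levels are TMM-scaled CPM (counts scaled to library size), from libraries of 28.7 to 41.9 M recovered reads in which 1 read was worth 0.0231 to 0.0348 CPM. The 7 cartilage markers were present in every library, with a summed level of 5326 to 6148 CPM in acetate, 4725 to 5858 CPM in ethanol and 9772 to 12983 CPM in control. Markers of blood, endothelial, muscle, fat and epithelial cells summed to at most 2.15 CPM per list and library, with Myod1, Myog and Cfd at 0. One library, acetate replicate 2, differed most. Relative to the mean of the other acetate libraries it was lower for genes with a low share of G and C (GC) in their transcripts, and 12.3% of the 12868 tested genes were lower there by over 2-fold. It entered the estimated spread of every gene, also for ethanol against control. Acetate values are therefore given with and without it for most members named, and for ethanol, where leaving it out changes no fold change, the standard errors below are those of all 9 libraries and the narrower spread is summarised after them.

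The 40 genes were well expressed in ATDC5 cells. Per kilobase of transcript, Top2a, the topoisomerase that untangles sister chromatids, had the highest level in control cells, at 114 ± 15.4 CPM per kilobase (SD, n = 3). Prc1, which bundles microtubules of the central spindle, followed at 75.3 ± 6.89, Cenpa, the histone variant of centromeres, at 65.7 ± 14.4, and Cdk1 at 60.7 ± 10.9 CPM per kilobase. The last 3 overlapped in their spread. At the lower end stood Plk4, the kinase of centriole duplication, at 11.1 ± 0.627, the kinetochore genes Cenpe at 10.8 ± 1.33 and Cenpf at 10.6 ± 1.88, and Cdc25c, a phosphatase that switches Cdk1 on, at 4.94 ± 0.239 CPM per kilobase. Plk4, Cenpe and Cenpf did not differ beyond their spread, and Cdc25c lay below them in every control library.

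None of the 40 genes passed the threshold in any comparison. The test was limma on the log2 of CPM plus 1, with an adjusted p under 0.05 over all 12868 tested genes as the threshold. For acetate against control the background was 1.00% of tested genes past the threshold, for ethanol against control 3.93%, and for acetate against ethanol 3.73%. Of the 40 members, 1 had an unadjusted p under 0.05 in the first comparison (Incenp, higher), 0 in the second and 3 in the third (Cenpe, Kif4 and Ndc80, lower). For such unadjusted counts in the fit of 9 libraries, here and for the other lists below, no share of all tested genes is given. The voom method on recovered reads also placed 0 members past the threshold in each. The smallest adjusted p among members in limma was 0.310 with acetate, 0.350 with ethanol and 0.174 between the treatments.

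The share of all CPM taken by the 40 genes was 0.480%, 0.358% and 0.410% in acetate replicates 1 to 3, 0.457%, 0.483% and 0.468% in ethanol and 0.435%, 0.443% and 0.359% in control. By this share the ethanol libraries lay close together and above the control libraries, while the acetate libraries spanned both. The summed TMM-scaled CPM of the members overlapped between ethanol and control. It was 4383 CPM in ethanol replicate 1, against 4644.5 and 4423 CPM in control replicates 1 and 2. Relative to each gene's mean over the 9 libraries, the members had a median of 0.24, -0.45 and -0.11 on the log2 scale in acetate, 0.05, 0.17 and 0.07 in ethanol and 0.09, 0.03 and -0.17 in control. Acetate replicate 2 was the lowest of all libraries for 21 members and the highest for 11. The share of all tested genes with these ranks is not given here. Over all tested genes the median of that library was 0.01 on the same scale.

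**Figure D1:**
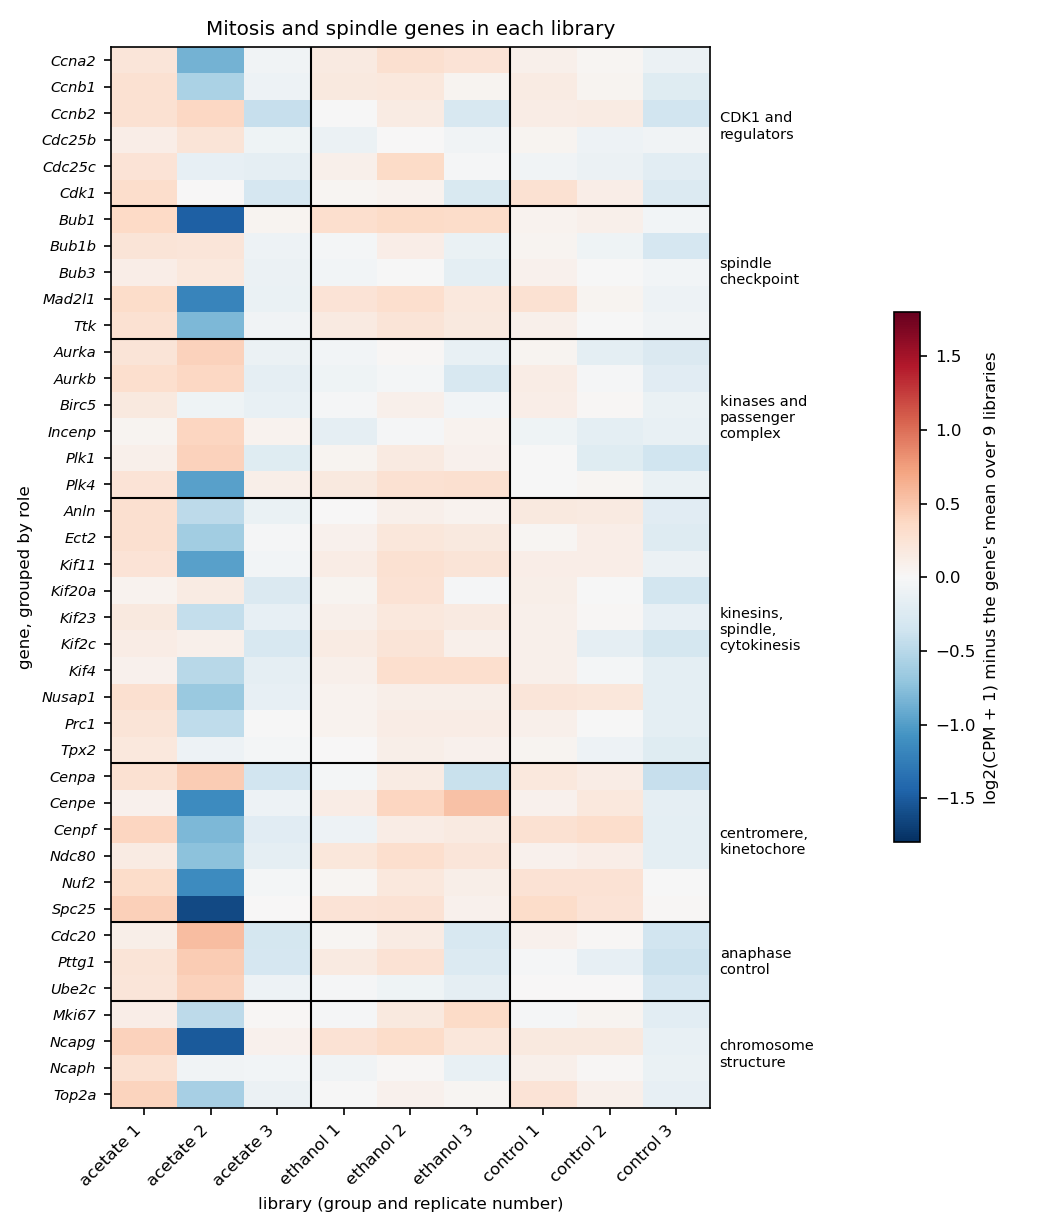
Heat map of the 40 genes (rows, grouped by role) in the 9 libraries (columns), with colour for the log2 of CPM plus 1 minus the mean of the gene over the libraries (red above it, blue below). Acetate replicate 2 is mixed, lowest of all libraries for 21 genes and highest for 11, and control replicate 3 is lower than the other control libraries in most rows.

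With ethanol, 29 of the 40 genes had a positive log2 fold change against control, with a median of 0.14 (all tested genes -0.00) and a range of -0.11 to 0.31. No member passed the threshold in the fit of all 9 libraries. With only the ethanol and control libraries in the fit, 4 members were higher in ethanol, namely Bub1, Plk1, Plk4 and Kif4, beside 12.1% of all tested genes. Bub1 is a kinase of the spindle checkpoint, Plk1 the polo kinase that drives spindle assembly, and Kif4 a chromosome-bound kinesin.

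Among Cdk1 and its regulators no member stood out with ethanol, and Cdk1 itself pointed down. Cdk1 had 168, 170.0 and 135 CPM in ethanol replicates 1 to 3, against 198, 177 and 138 CPM in control, and the groups overlapped (log2 fold change -0.11 ± 0.19, standard error). Ccnb1, which codes for cyclin B1, had 95.9, 97.6 and 88.3 CPM in ethanol, against 94.8, 88.0 and 73.0 CPM in control (0.15 ± 0.20). Its groups overlapped too. Ccnb2 (-0.03) and Cdc25b (-0.02) were level, while Ccna2, the S phase and mitotic cyclin A2, had 153, 168 and 163 CPM in ethanol, against 146, 141 and 127 CPM in control, without overlap (0.23 ± 0.23, adjusted p = 0.664 in limma). Cdc25c was at 11.3, 13.7 and 10.4 CPM in ethanol, against 10.0, 9.7 and 9.09 CPM in control, also without overlap (0.26 ± 0.15). GENCODE annotates a pseudogene copy of each of Ccnb1, Ccnb2 and Kif4, with which reads may have been shared.

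The spindle checkpoint holds cells in metaphase until each chromosome is attached. Of its 5 members, 4 were positive with ethanol, with a median of 0.17. Bub1 (chromosome 2, 127801122 to 127831865 on GRCm38) had 99.7, 102 and 101 CPM in ethanol, against 84.1, 86.4 and 77.8 CPM in control, and all ethanol values lay above all control values. Its log2 fold change was 0.29 ± 0.38 with all 9 libraries, adjusted p = 0.755, and 0.29 ± 0.07 with the 6 libraries compared, adjusted p = 0.015 in limma (5.8e-05 to 0.914 over its alternatives). Acetate replicate 2 had 28.6 CPM of Bub1, and this value entered the spread in the fit of 9 libraries. Mad2l1, whose product Mad2 inhibits Cdc20, had 96.4, 101 and 92.3 CPM in ethanol, against 98.2, 84.3 and 76.4 CPM in control (0.17 ± 0.32), with overlap. Bub1b, which codes for BubR1, had 91.5, 103 and 86.5 CPM in ethanol, against 97.5, 88.9 and 75.9 CPM in control (0.10 ± 0.14), again with overlap. Ttk, which codes for the Mps1 kinase at the head of the checkpoint, was at 0.19, and Bub3 was the 1 negative member at -0.08.

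Among the mitotic kinases the polo kinases had larger fold changes with ethanol than the Aurora kinases. Plk1 had 52.5, 56.8 and 53.5 CPM in ethanol, against 50.5, 43.1 and 39.2 CPM in control (0.29 ± 0.17), with no overlap. Plk4 had 43.3, 46.7 and 46.8 CPM in ethanol, against 38.0, 39.3 and 35.1 CPM in control (0.28 ± 0.27). Its adjusted p was 0.646 with all 9 libraries and 0.027 in limma on the 6 libraries (3.0e-04 to 0.870 over its alternatives). The Aurora kinases and their partners overlapped between groups. Aurka, the centrosomal kinase, had 58.6, 61.6 and 55.2 CPM in ethanol, against 62.9, 53.5 and 50.6 CPM in control (0.07 ± 0.15). Aurkb, the catalytic subunit of the chromosomal passenger complex, had 51.8, 53.4 and 44.7 CPM in ethanol, against 60.2, 54.1 and 47.4 CPM in control (-0.11 ± 0.16). Birc5, the survivin subunit of that complex, had 78.5, 84.9 and 76.5 CPM in ethanol, against 86.8, 80.6 and 72.9 CPM in control (0.00 ± 0.12). The differences between the polo and the Aurora kinases were not tested.

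The 10 kinesin, spindle and cytokinesis genes had fold changes of 0.00 to 0.28 with ethanol and a median of 0.16, of which 0 passed in the fit of 9 libraries. Kif11, the motor that pushes spindle poles apart, had 148, 163 and 159 CPM in ethanol, against 147, 147 and 125 CPM in control (0.17 ± 0.26), just without overlap. Kif4 (chromosome X, 100625737 to 100727214) had 83.0, 95.6 and 95.5 CPM in ethanol, against 82.4, 75.7 and 68.8 CPM in control (0.27 ± 0.16; adjusted p = 0.397, and 0.048 with the 6 libraries in limma, 1.9e-04 to 0.731 over its alternatives). Kif2c, a depolymerase of kinetochore microtubules, had 0.28 ± 0.15. The mitotic kinesins Kif20a and Kif23, the spindle factors Tpx2 and Prc1 and the cytokinesis factor Ect2 lay between 0.14 and 0.18. Anln and Nusap1, which act in the contractile ring and the spindle, were both at 0.00, and with voom Nusap1 was just below 0.

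The kinetochore genes were split with ethanol, with a median of -0.03 and 2 of 6 positive. Cenpe, the kinetochore kinesin, had 91.4, 109 and 120.5 CPM in ethanol, against 88.0, 94.9 and 74.2 CPM in control (0.31 ± 0.28), with overlap. Cenpa had 58.4, 66.3 and 45.2 CPM in ethanol, against 68.5, 65.6 and 44.6 CPM in control (-0.06 ± 0.24). Ndc80 was at 0.24 ± 0.20, and its partners in the NDC80 complex, Nuf2 and Spc25, were at -0.06 and -0.00. Nuf2 and Spc25 thus lay near 0, with standard errors of 0.31 and 0.42. None of these genes passed the threshold in the fit of 9 libraries.

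Genes of anaphase and chromosome structure were divided with ethanol, with Pttg1, Mki67 and Ncapg above the median of all members. Cdc20, the activator of the anaphase-promoting complex, had 62.1, 66.9 and 49.5 CPM in ethanol, against 63.9, 61.1 and 47.2 CPM in control (0.05 ± 0.22). Ube2c, the ubiquitin-conjugating enzyme of that complex, had 49.4, 47.3 and 44.8 CPM in ethanol, against 50.4, 50.5 and 40.5 CPM in control (0.01 ± 0.15). Pttg1, which codes for securin, had 51.6, 55.0 and 38.5 CPM in ethanol, against 45.2, 41.1 and 34.8 CPM in control (0.25 ± 0.21). All 3 overlapped between groups. Mki67, the source of the Ki-67 antigen by which dividing cells are counted, had 388, 445 and 500.4 CPM in ethanol, against 391, 408 and 347 CPM in control (0.21 ± 0.17, 95% interval -0.17 to 0.60). Top2a had 562, 597 and 583 CPM in ethanol, against 674, 605 and 513 CPM in control (-0.03 ± 0.22). Neither was separated between groups. Of the condensin genes, Ncapg had 96.6, 102 and 92.7 CPM in ethanol, against 90.8, 91.0 and 73.5 CPM in control, without overlap (0.19 ± 0.40), and Ncaph was at -0.06.

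Counted over all roles, 11 members had no overlap with ethanol above control and 0 with ethanol below, where 20.1% of tested genes lay wholly above and 23.3% wholly below. Ethanol and control libraries of the same number deviated together across genes, so differences within numbers were also taken. Ethanol was above control in all 3 pairs for 16 members, beside 33.7% of tested genes. The size differed by pair, with 16 members higher and a median of -0.03 in the libraries numbered 1, 30 and 0.15 in those numbered 2, and 35 and 0.26 in those numbered 3. Over all tested genes the medians of these pairs were -0.03, 0.06 and -0.04. Control replicate 3 was the lowest control library for 38 of the 40 members, and the share of all tested genes is not given here. Relative to each gene's mean, all tested genes had a median of 0.05 in that library, against -0.17 for members. Without control replicate 3 the median for ethanol against control was 0.06 (all tested genes 0.02), with 24 members positive. Without control replicate 1 it was 0.20 (all tested genes 0.00), with 35 positive.

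The spread sets how large a difference could have gone unseen. For ethanol, the 95% interval of the fold change stayed within 2-fold in either direction for 38 of 40 members in the fit of 9 libraries, the exceptions being Bub1 and Ncapg. Without acetate replicate 2 it stayed within 1.5-fold for 39 members, and the median interval was ±0.24 on the log2 scale, against ±0.44 in the fit of 9 libraries. In that fit 2 members were higher, Bub1 (adjusted p = 0.042 in limma) and Plk4 (adjusted p = 0.032), beside 10.2% of tested genes, with the ranges given above. With the trend with GC removed from every library 1 member was higher (Plk4), beside 8.36% of tested genes, and 6 were with the replicate block as well, beside 19.4%. With replicate number as a block and acetate replicate 2 left out, 19 members were higher and 0 lower, beside 24.4% of tested genes that were higher, and Cenpe (0.31 ± 0.07), Plk1 (0.29 ± 0.07) and Bub1 led them. That fit had 3 residual degrees of freedom and an unlimited prior, so that genes of a given level shared 1 variance, and its p-values for single genes carry this limit.

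**Figure D2:**
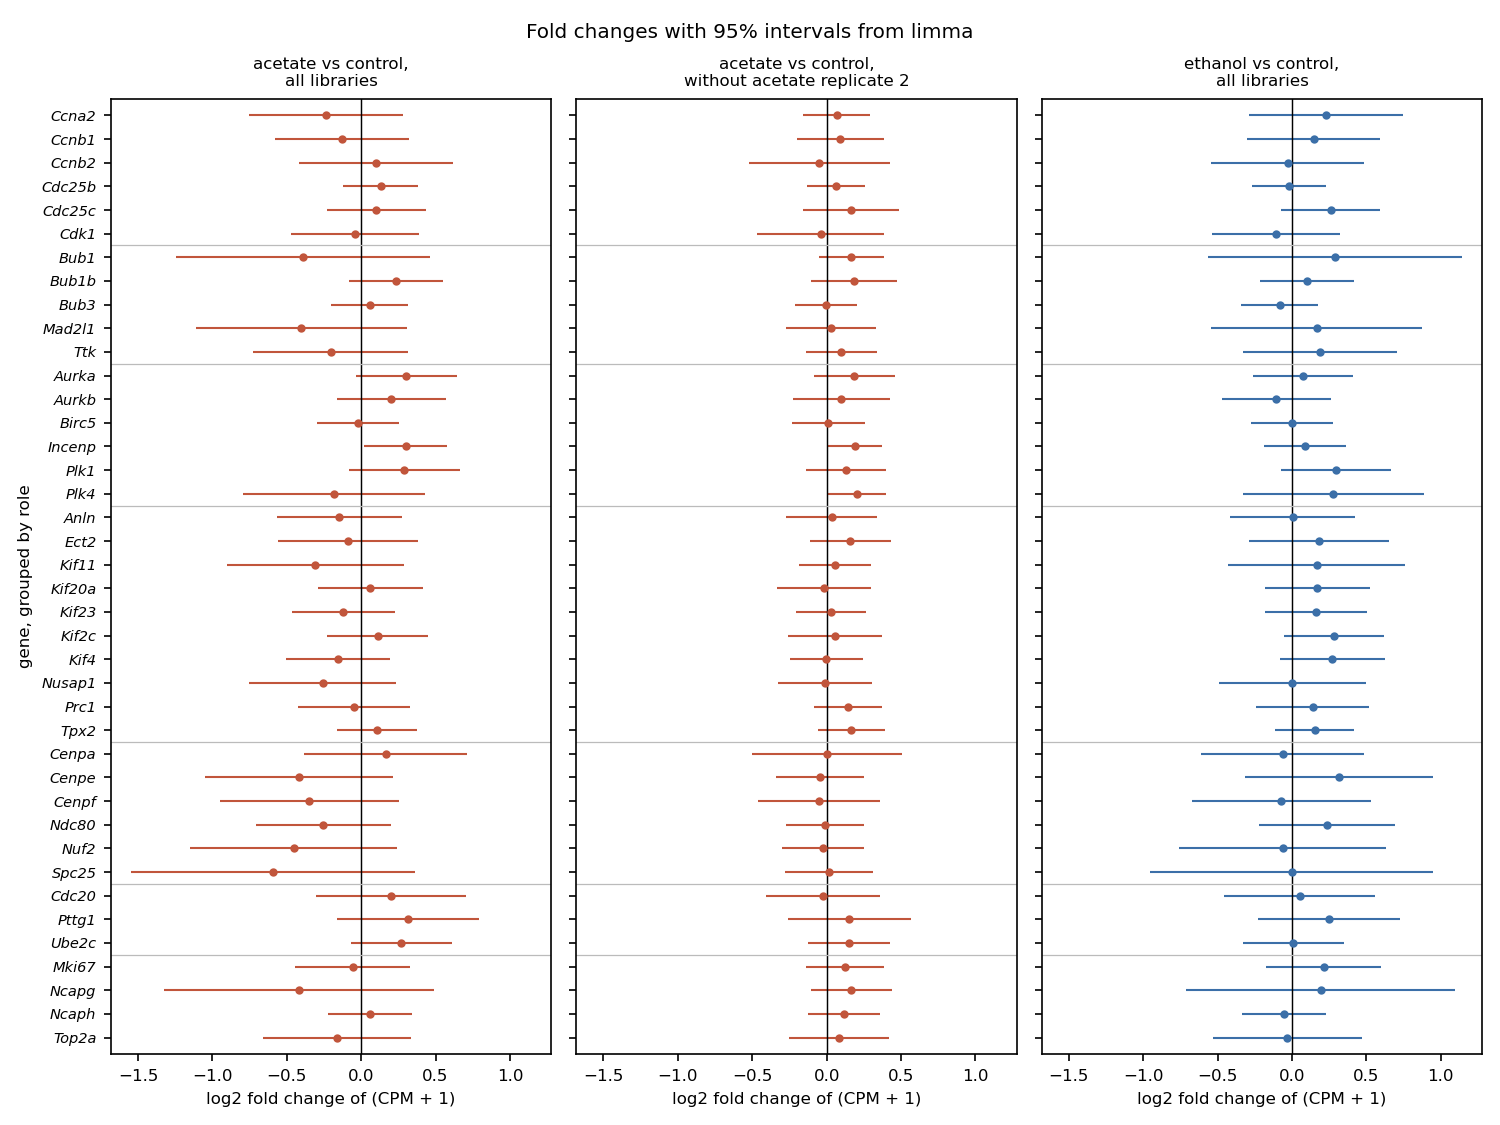
Log2 fold changes of CPM plus 1 for the 40 genes (rows, grouped by role) with 95% limma intervals, in 3 panels: acetate over control, the same without acetate replicate 2, and ethanol over control. In the left panel the intervals are wide for genes such as Spc25 (-0.59 ± 0.42, standard error), in the middle panel they are narrower, and on the right every interval includes 0.

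With acetate, the members split by sign, with 17 of 40 positive, a median log2 fold change of -0.05 against control (all tested genes -0.01) and a range of -0.59 to 0.31. The split followed GC content in acetate replicate 2. Over the 40 members the difference of this library from the mean of the other acetate libraries had a Pearson r of 0.91 and a Spearman rho of 0.93 with transcript GC, as a description over genes that share the library, and r was 0.83 over 12741 genes. The 15 members under 45% GC had a median difference of -1.09, beside -1.05 over 2620 tested genes in that range. The 14 members from 45% to 50% GC had a median of -0.18 and a range of -0.92 to 0.49, beside a median of -0.31 over 3352 genes. The 11 members of at least 50% GC had a median of 0.33, beside 0.31 over 6769 genes. Members had a median GC of 47.0%, against 50.5% over all tested genes, and spanned 39.8% to 56.0%.

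**Figure D3:**
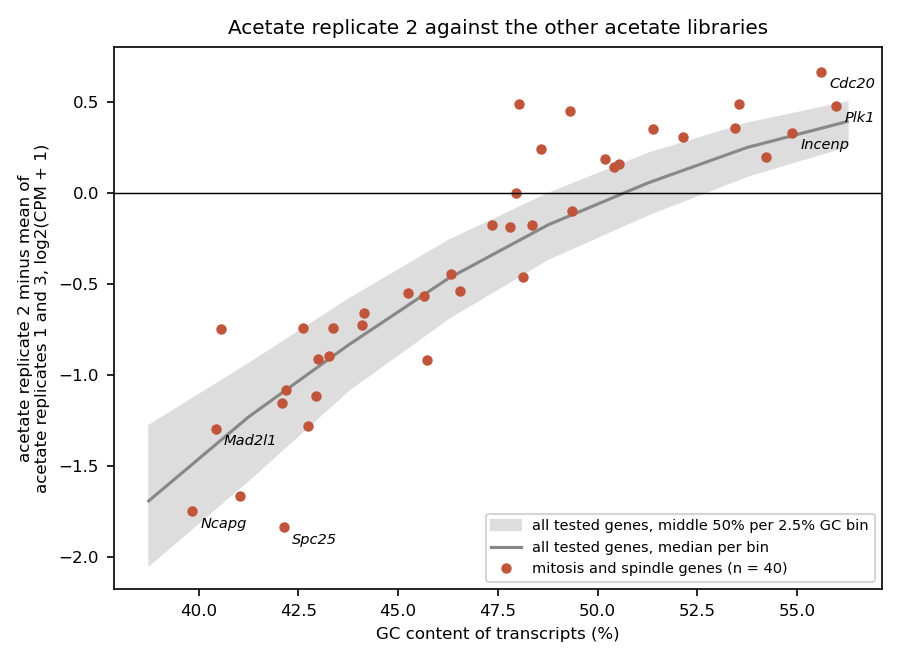
Difference of acetate replicate 2 from the mean of acetate replicates 1 and 3 (log2) against transcript GC content (%) for the 40 genes, with the median (line) and the middle 50% (band) of all tested genes in bins of 2.5% GC. The members rise with the line of all genes, with Ncapg and Spc25 low on the left and Cdc20 high on the right (Pearson r 0.91). Some lie outside the band, such as Pttg1 (0.49) and Ccnb2 (0.45) above it and Ccna2 (-0.92) below it.

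Without acetate replicate 2 the acetate libraries were close to control. The median was 0.07 (all tested genes 0.02), 29 members were positive, and the range narrowed to -0.05 to 0.20. In limma 0 members passed the threshold and 2 had an unadjusted p under 0.05 (Plk4 and Incenp, higher). Over all tested genes, 2269 of 12868 had an unadjusted p under 0.05 in limma without that library, 1404 of them higher in acetate. The 95% interval lay within 1.5-fold in either direction for all 40 members in that fit, against 19 of 40 with acetate replicate 2 in it. Removing the trend with GC from every library in place of the library gave a median of 0.08, with 32 positive. By pair, 37, 14 and 30 members were higher in acetate than in control in the libraries numbered 1, 2 and 3. The medians were 0.12, -0.45 and 0.05 (all tested genes 0.03, 0.05 and -0.04). With the replicate block and acetate replicate 2 left out, 40 members were positive with a median of 0.10 (all tested genes 0.01). In that fit, whose prior was unlimited, 5 passed beside 12.2% of tested genes.

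Single members show the pattern. Spc25, a small subunit of the NDC80 complex, had 76.9, 17.9 and 57.5 CPM in acetate replicates 1 to 3, against 71.9, 68.0 and 57.9 CPM in control. Its log2 fold change was -0.59 ± 0.42, and 0.02 ± 0.13 without acetate replicate 2. Ncapg, a subunit of the condensin that folds mitotic chromosomes, had 107, 27.6 and 84.4 CPM in acetate, against 90.8, 91.0 and 73.5 CPM in control (-0.42 ± 0.40, and 0.17 ± 0.12 without that library). In Ncapg the value of acetate replicate 2 alone lay below all control values, and in Spc25 acetate replicate 3 lay just under the lowest control library as well. Both have low GC, at 42.1% and 39.8%.

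The cyclin and kinase genes of the Cdk1 group were near control with acetate, with a median of 0.03. Cdk1 had 203, 164 and 133 CPM in acetate, against 198, 177 and 138 CPM in control (-0.04 ± 0.19). Ccnb1 had 103, 56.8 and 79.6 CPM in acetate, against 94.8, 88.0 and 73.0 CPM in control (-0.13 ± 0.20, and 0.09 ± 0.13 without acetate replicate 2). Both overlapped with control. Of the checkpoint genes, Mad2l1, at 40.4% GC, had 102, 35.1 and 74.9 CPM in acetate, against 98.2, 84.3 and 76.4 CPM in control (-0.40 ± 0.32, and 0.03 ± 0.14). Bub1b, at 50.4% GC, had 111, 109 and 87.9 CPM in acetate, against 97.5, 88.9 and 75.9 CPM in control (0.23 ± 0.14, and 0.18 ± 0.13). The sign of the checkpoint genes with all libraries thus differed between Mad2l1 and Bub1b, and without acetate replicate 2 both were positive without passing.

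Of the mitotic kinases and the passenger complex, 4 of 6 were positive with acetate, with a median of 0.25, and 6 of 6 with a median of 0.16 without acetate replicate 2. Incenp, the scaffold of the passenger complex (chromosome 19, 9872296 to 9899551), had 146, 185 and 148 CPM in acetate, against 134, 125 and 128 CPM in control, and was the 1 member whose acetate values all lay above control, beside 11.4% of tested genes. Its log2 fold change was 0.30 ± 0.12, with an adjusted p of 0.310 in limma, and 0.19 ± 0.08 without acetate replicate 2. For no member did all acetate values lie below control, beside 8.14% of tested genes. Plk1 had 53.8, 67.7 and 43.4 CPM in acetate, against 50.5, 43.1 and 39.2 CPM in control (0.29 ± 0.17, and 0.13 ± 0.12 without acetate replicate 2). Aurka had 71.2, 80.9 and 56.1 CPM in acetate, against 62.9, 53.5 and 50.6 CPM in control (0.30 ± 0.15, and 0.19 ± 0.12). Aurkb had 67.7, 71.6 and 48.9 CPM in acetate, against 60.2, 54.1 and 47.4 CPM in control (0.20 ± 0.16, and 0.10 ± 0.15). In each of these 3 kinases, whose GC lies above 50%, acetate replicate 2 was the highest library. Birc5 had 89.8, 75.1 and 72.2 CPM in acetate, against 86.8, 80.6 and 72.9 CPM in control (-0.02 ± 0.12).

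Motor, kinetochore and anaphase genes repeated this division, with Pttg1 apart from the trend with GC. Kif11, at 42.2% GC, had 160.0, 67.6 and 131 CPM in acetate, against 147, 147 and 125 CPM in control (-0.31 ± 0.26, and 0.05 ± 0.11 without acetate replicate 2). Cenpa, at 53.5% GC, had 72.9, 82.5 and 47.0 CPM in acetate, against 68.5, 65.6 and 44.6 CPM in control (0.16 ± 0.24, and 0.00 ± 0.23). The kinetochore group as a whole had a median of -0.38 with all libraries and of -0.02 without acetate replicate 2. Cdc20, at 55.6% GC, had 65.4, 89.6 and 48.1 CPM in acetate, against 63.9, 61.1 and 47.2 CPM in control (0.20 ± 0.22, and -0.02 ± 0.17). Ube2c had 58.2, 67.1 and 46.7 CPM in acetate, against 50.4, 50.5 and 40.5 CPM in control (0.27 ± 0.15, and 0.15 ± 0.12). Pttg1 had 54.1, 63.0 and 36.9 CPM in acetate, against 45.2, 41.1 and 34.8 CPM in control (0.31 ± 0.21, and 0.15 ± 0.19). In all 3 anaphase genes acetate replicate 2 was again the highest of the acetate libraries. Pttg1 has 48.0% GC, and its log2 difference of acetate replicate 2 from the other acetate libraries was 0.49. Over all tested genes of 47.5% to 50% GC the median of this difference was -0.18.

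The markers of dividing cells overlapped between acetate and control. Mki67 had 431, 285 and 399 CPM in acetate, against 391, 408 and 347 CPM in control (-0.06 ± 0.17, and 0.12 ± 0.12 without acetate replicate 2). Top2a had 749, 376 and 528 CPM in acetate, against 674, 605 and 513 CPM in control (-0.16 ± 0.22, and 0.08 ± 0.15). In both, acetate replicate 2 was the lowest of the 9 libraries. Within acetate, replicate 3 was below replicate 1 for 39 of 40 members, beside 55.7% of tested genes.

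**Figure D4:**
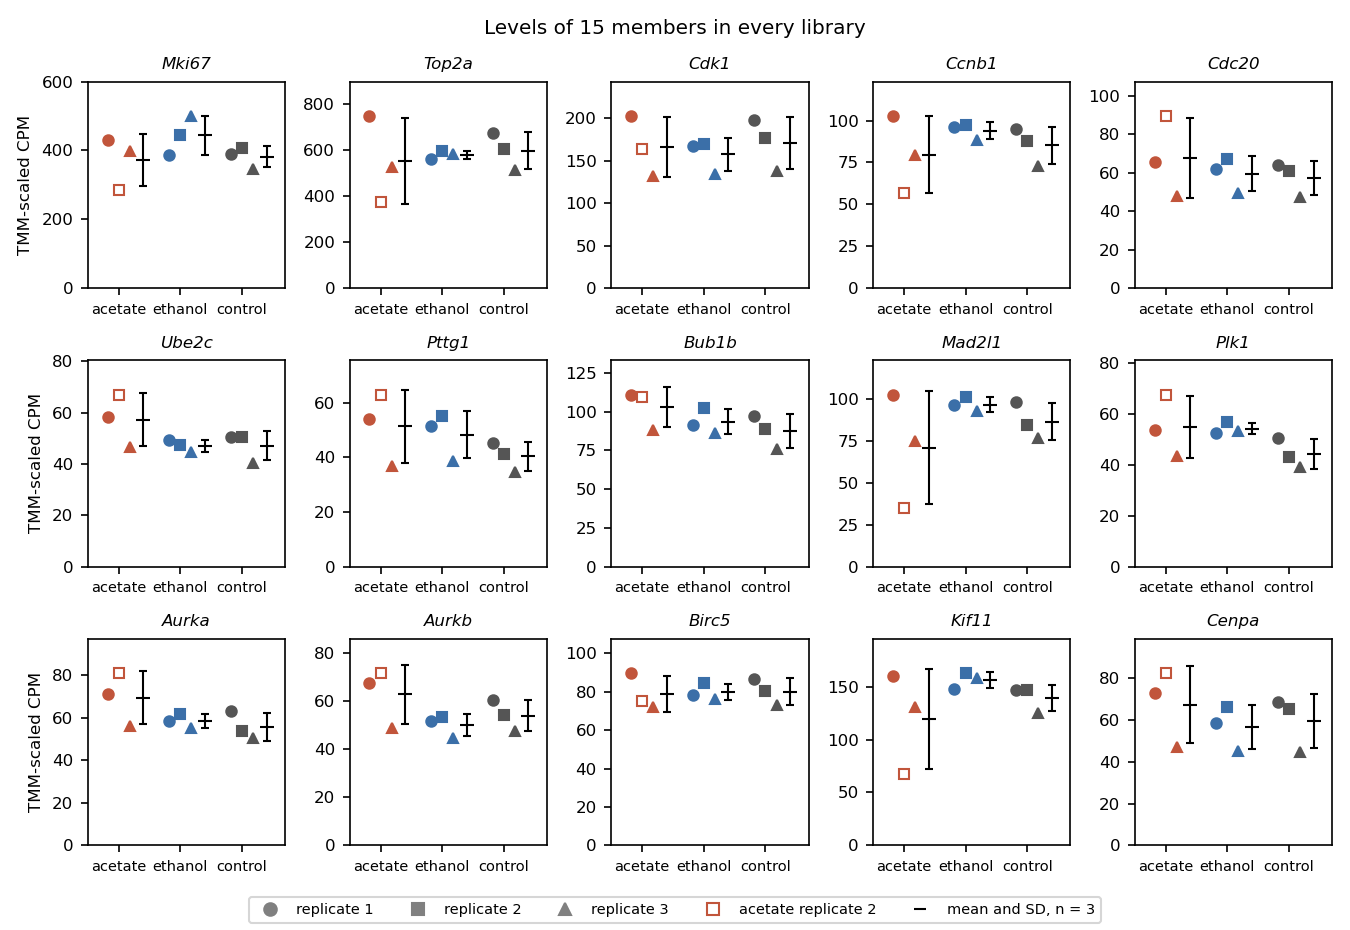
TMM-scaled CPM of 15 members, 1 panel each with its axis starting at 0, for acetate, ethanol and control, with 1 point per library (circle, square and triangle for replicates 1, 2 and 3, open square for acetate replicate 2) and the mean and SD as a bar (n = 3). The open square is lowest in Mad2l1 (35.1 CPM) and Kif11 (67.6 CPM) and highest in Cdc20 (89.6 CPM) and Plk1 (67.7 CPM).

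The direct comparison asks whether the treatments differ from each other. Acetate had lower levels than ethanol for 27 of 40 members, with a median log2 difference of -0.17 (all tested genes -0.01), and 22 of the 40 were lower with a median of -0.02 without acetate replicate 2. The direction turned by pair. In the libraries numbered 1, 36 members were higher in acetate with a median of 0.17, against 12 with a median of -0.57 in those numbered 2 and 8 with a median of -0.14 in those numbered 3. Over all tested genes the medians of the same pairs were 0.06, -0.01 and -0.01. The 3 members with an unadjusted p under 0.05 were Cenpe, Kif4 and Ndc80. Cenpe had 87.7, 37.5 and 77.8 CPM in acetate, against 91.4, 109 and 120.5 CPM in ethanol, without overlap (-0.73 ± 0.28, adjusted p = 0.187 in limma, and -0.36 ± 0.13 without acetate replicate 2). Kif4 had 82.1, 54.4 and 69.1 CPM in acetate, against 83.0, 95.6 and 95.5 CPM in ethanol (-0.43 ± 0.16, and -0.27 ± 0.11). Ndc80 had 57.1, 30.4 and 45.6 CPM in acetate, against 59.1, 63.3 and 60.0 CPM in ethanol (-0.49 ± 0.20, and -0.25 ± 0.12). In each of the 3 genes, which were picked by p in this comparison, all acetate values lay below all ethanol values, as in 12.5% of tested genes, and in 18.1% without acetate replicate 2. With replicate number as a block and acetate replicate 2 left out, Cenpe (-0.31 ± 0.08), Kif4, Kif2c and Ndc80 were lower in acetate, beside 14.1% of tested genes, and Aurkb (0.23 ± 0.08) and Ncaph were higher, beside 19.1%, in the fit whose prior was unlimited. With the block and the trend with GC removed, Kif4, Cenpe and Ndc80 were lower, beside 16.1%, and Aurkb and Ncaph higher, beside 17.6%. Acetate and ethanol were each compared with the same control libraries, so those 2 comparisons share them.

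The members also varied with the replicate number within groups. In 19 of 40 members the library numbered 3 was the lowest in both ethanol and control, beside 18.8% of tested genes. In 14 of these members it was the lowest in acetate as well, for which no share of all tested genes is given here. For Cenpa, Ccnb2, Cdc20, Cdk1 and Pttg1 this difference was larger than the fold change of any member for ethanol against control. Averaged over ethanol and control, replicate 3 was lower than the mean of replicates 1 and 2 by a log2 difference of -0.51 for Cenpa, -0.43 for Ccnb2, -0.39 for Cdc20, -0.38 for Cdk1 and -0.38 for Pttg1. The fold changes of ethanol against control for the same genes were -0.06, -0.03, 0.05, -0.11 and 0.25. At the other end, Mki67 stood at 0.03 and Incenp at 0.07 for the same difference. The 19 members had a median GC of 49.3% and a median transcript length of 2140 bases, the other 21 members 44.1% and 3398 bases. Over all tested genes the values were 50.5% and 2685 bases, and the part of GC and of length in this difference was not tested.

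Other genes of cell division were counted from lists drawn up beside the members. Of 61 further mitosis genes 0 passed the threshold in limma in any comparison, with 4 at an unadjusted p under 0.05 between acetate and control, 6 between ethanol and control and 3 between the treatments, and voom also gave 0. Their medians were 0.02, 0.16 and -0.14 in the same comparisons, and with ethanol 52 of 61 were positive. None of 20 transcription factors and pocket proteins of these genes passed in limma or voom, with 2, 6 and 4 at an unadjusted p under 0.05 in limma in the same comparisons. Foxm1 averaged 142 ± 24.1 CPM in acetate, 156 ± 11.9 CPM in ethanol and 118 ± 3.94 CPM in control (SD, n = 3 each), with 0.39 ± 0.13 for ethanol against control and an adjusted p of 0.151 in limma (1.8e-08 to 0.425 over its alternatives). Mybl2, which codes for B-MYB, averaged 37.3 ± 6.84 CPM in acetate, 45.2 ± 1.38 CPM in ethanol and 30.2 ± 3.04 CPM in control, with 0.57 ± 0.14 for ethanol and an adjusted p of 0.062 (2.6e-14 to 0.255). Without acetate replicate 2 the acetate means were 128 CPM for Foxm1 and 33.7 CPM for Mybl2, with 0.12 ± 0.08 and 0.16 ± 0.11 against control. Both genes passed for ethanol with the 6 libraries compared and without acetate replicate 2. In the fit without that library 8 of the 20 factors and 12 of the 61 mitosis genes were higher in ethanol than in control, beside 10.2% of tested genes. The factors, named after their values were seen, included the MuvB subunit genes Lin54 (0.55 ± 0.07) and Lin9 (0.49 ± 0.07). In the same fit 1 of the 61, Kif18b, was higher in acetate than in control, beside 1.95% of tested genes. The mitosis genes Kif15, Iqgap3 and Dsn1 and the factors Mybl2 and Lin9 were lower in acetate than in ethanol, beside 2.89%.

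Among genes that act before mitosis single ones passed the threshold. Of all tested genes, 0.505% were higher with acetate, 1.48% higher and 2.45% lower with ethanol, and 2.84% higher in acetate than in ethanol. Of 16 genes of G1 phase, 2 rose with acetate: Ccnd2, which codes for cyclin D2, averaged 221 ± 13.7 CPM in acetate and 125 ± 6.95 CPM in control (0.82 ± 0.10, adjusted p = 0.012 in limma), and Ccnd1, the cyclin D1 gene, 154 ± 10.5 CPM in acetate and 107 ± 3.60 CPM in control (0.52 ± 0.10, adjusted p = 0.048). The Ccnd2 call was lost with the 6 libraries compared and without control replicate 1 or 3, and the Ccnd1 call under 13 alternatives. With ethanol 1 of the 16 fell, the kinase inhibitor gene Cdkn1c, at 48.4 ± 6.44 CPM in ethanol and 94.0 ± 10.6 CPM in control (-0.95 ± 0.13, adjusted p = 0.0066), which held under the 22 alternatives tried. Ccnd2 (0.53 ± 0.10) and Cdkn1c (0.84 ± 0.13) were higher in acetate than in ethanol. Both of these calls were lost with the 6 libraries compared and without ethanol replicate 2 or 3, and that of Ccnd2 also without ethanol replicate 1 or control replicate 1 (adjusted p up to 0.111 for Ccnd2 and 0.067 for Cdkn1c in limma). Without acetate replicate 2, ethanol also had higher Ccnd2 (0.28 ± 0.08) and lower Ccnd3 (-0.35 ± 0.08) than control, beside 10.2% and 11.3% of tested genes. In that fit Ccnd1 (0.33 ± 0.08) and Ccnd3 (0.38 ± 0.09) were also higher in acetate than in ethanol, beside 736 of 12868 tested genes. Of 33 DNA replication genes 2 rose with ethanol, Mcm10, at 57.8 ± 1.22 CPM in ethanol and 39.1 ± 1.04 CPM in control (0.55 ± 0.11), and the thymidylate synthase gene Tyms (0.49 ± 0.11), and both calls were lost without any 1 of the ethanol or control libraries, while 8 of the 33 were higher without acetate replicate 2, beside the 10.2% above. Of 17 tested p53 target genes, Plk2 (1.02 ± 0.13, adjusted p = 0.0047) and Gadd45a (0.79 ± 0.10, adjusted p = 0.0049) rose with ethanol, and Gadd45a (0.55 ± 0.10, adjusted p = 0.048) rose with acetate, a call lost under 10 alternatives. Without acetate replicate 2, Plk2 (0.63 ± 0.12) was also higher in acetate than in control, beside 1.95% of tested genes. Aen (0.56 ± 0.10) and Tnfrsf10b (0.36 ± 0.10) were then also higher in ethanol than in control, beside 10.2%. Cdkn1a, the p21 gene and a main target of p53, averaged 283 ± 7.75 CPM in acetate, 264 ± 16.8 CPM in ethanol and 273 ± 37.9 CPM in control, and did not pass. Of 16 genes of the anaphase-promoting complex 0 passed in limma or voom in any comparison, with 3, 0 and 2 at an unadjusted p under 0.05 in limma. Without acetate replicate 2 Cdc27 was higher and Cdc16 lower in ethanol than in control, beside 10.2% and 11.3% of tested genes. Anapc4 and, of the replication genes, Rrm2 (-0.32 ± 0.08) were then lower in acetate than in ethanol, beside 2.89% of tested genes. Fzr1, the activator of the anaphase-promoting complex in G1, averaged 62.7 ± 18.6 CPM in acetate, 50.6 ± 4.72 CPM in ethanol and 52.3 ± 3.15 CPM in control. Without acetate replicate 2, which alone had 84.0 CPM, its acetate mean was 52.1 CPM.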

How the data were processed

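RNA of ATDC5 cells was taken up in Trireagent and made into libraries with a stranded Illumina mRNA kit, per the labels' protocols. The authors deposited 1 table of log2 values, TMM-normalised counts per its name. Partek, Bowtie2 2.2.5, STAR 2.7.8a and mm10 are named in the submitters' processing notes; the annotation, the counting step and its use of strand are not given in the sources used here. The lowest value of each library, an offset of 1e-05 read, was subtracted, which gave TMM-scaled CPM. From the same offset reads were recovered, of which 85.7% to 87.4% of values between 0.5 and 20 were whole within 0.02 read, so that the values were not treated as counts and recovered reads entered only voom.

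The 12868 genes that averaged 1 CPM or more were fitted by limma (3.58.1, under R 4.3.3) on the log2 of CPM plus 1, as group means over 9 libraries with a trend of the variance with the mean, and p-values were adjusted over all of them by Benjamini-Hochberg. Fold changes on this scale understate those of low genes. The procedure was tested on simulated data with a spread taken from the ethanol libraries, without a trend with GC or an effect of replicate number. That test therefore does not cover a library such as acetate replicate 2. GC content and length are medians over the transcripts of a gene in GENCODE M21 on GRCm38, the build of mm10. Of the genes, 24919 matched by symbol, 416 by synonym and 867 not at all. GC was known for 99.0% of tested genes. Promoters came from RefSeq on GRCm38.p6, and no promoter is printed for the other members. Protein sequences were not used here. Other steps used pandas 2.3.3 and Python 3.11.15.

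Deviations from group means in libraries of the same number correlated at 0.55, 0.36 and 0.67 for ethanol and control and at 0.15, 0.25 and 0.61 for acetate and ethanol, so these numbers were taken as pairs.

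The members and lists were chosen with earlier results of these data known. Values per library were given for 15 members of a set list, for members past the threshold without overlap, and for those with an unadjusted p under 0.05 or a call in an alternative, which were chosen after their values were seen, as were Spc25, Ncapg, Ccna2, Cdc25c and the genes of other lists named for the fit without acetate replicate 2. From other lists up to 4 genes past the threshold per comparison were named, with Cdkn1a, Ccnd1, Foxm1, Mybl2 and Fzr1. The alternatives were the pseudocount (0.1 and 0.5), the filter (none, and 5 CPM), median-of-ratios and quantile scaling, no mean trend, voom, the 6 libraries compared, a replicate block, removal of the trend with GC by lowess (span 0.3), the block with either, and each library left out.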

Additional observations from a re-analysis of the deposited data

How the results depend on the processing

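Of the 40 members, 0 passed in limma in either direction and any comparison, and this count held with both other pseudocounts, both other filters, both other scalings, no mean trend, voom and the replicate block alone (unadjusted p under 0.05 with the block: 4 for acetate against control, 1 for ethanol against control, 5 for acetate against ethanol). No share of all tested genes is given for these unadjusted counts. For ethanol against control, 4 members were higher with the 6 libraries compared, 1 with the trend with GC removed (8.36% of genes), 6 with that and the replicate block (19.4%), and 19 with the replicate block and acetate replicate 2 left out (24.4%). Leaving out each library in turn gave 0 to 2, with 2 without acetate replicate 2. For acetate against control, 3 were higher with the block and the trend with GC removed (10.8% of genes), and 5 with the block and acetate replicate 2 left out (12.2%). For acetate against ethanol the same fits gave 2 and 2 higher (17.6% and 19.1% of genes) and 3 and 4 lower (16.1% and 14.1%). The last fit had an unlimited prior, and for the other changes of count the cause was not tested.

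The median of the members for ethanol against control was positive in every fit, at 0.06 (without control replicate 3) to 0.20 (without control replicate 1). Over all tested genes the medians of these 2 fits were 0.02 and 0.00. The count of positive members, 29 in the fit of 9 libraries, was 27 with voom and 25 with median-of-ratios scaling. For acetate against control it changed sign, lying between -0.20 (without acetate replicate 1) and 0.10 (with the block and acetate replicate 2 left out), and was 0.02 with quantile scaling. For acetate against ethanol it ran between -0.34 and 0.02. Deviations of acetate and control libraries of the same number correlated at 0.25, -0.10 and 0.41, where the second value is that of acetate replicate 2. Whether the number links these libraries was not tested. With 3 libraries a group, differences under the 95% intervals given could not be seen, and in the fit of 9 libraries the spread of all comparisons includes acetate replicate 2.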
